A study of Mus musculus with 2 samples.

Results

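Dividing CD4 T cells were picked out of immune cells in the pancreas, sorted by flow cytometry as CD45.1+ from NOD/ShiLtJ females. Mice of this inbred strain become diabetic spontaneously, through autoimmune loss of their beta cells. A cell was taken as a cycling CD4 T cell when its unique molecular identifiers (UMIs, each standing for 1 captured transcript) of Mki67, Top2a, Birc5, Ccna2, Rrm2, Cdk1 and Nusap1 summed to at least 4. It also needed at least 2 UMIs of Cd3d, Cd3e and Cd3g and at least 1 of Cd4, with at most 1 of Cd8a and Cd8b1 together and at most 1 of Cd79a. The rule found 101 cells among 3913 barcodes, each with 200 genes or more and no more than 10% of UMIs from mitochondrial genes. Of these, 61 came from the library of mice aged 12 weeks (2804 barcodes) and 40 from the library of mice aged 7 weeks (1109 barcodes). Every animal was of the same strain and sex, and the labels name no treatment or transgene. Each age had 1 library, and how many mice were pooled is not stated by the labels, so age and library cannot be told apart. The cells set against them, called other CD4 T cells below, met the same gate with a cycle sum under 4 and numbered 838 at 12 weeks and 357 at 7 weeks.

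A T cell that meets its antigen grows, copies its DNA in S phase and segregates the copies in G2 and mitosis (G2/M), and each step has its own set of transcribed genes. CD4 T cells differ in what they do while they divide. Foxp3 is the transcription factor of regulatory T cells, which restrain other T cells, and Izumo1r (folate receptor 4) is a surface protein carried by regulatory, follicular helper and anergic CD4 T cells. Lag3 is an inhibitory receptor induced by antigen stimulation, and Il21 encodes a helper cytokine that acts on B cells and CD8 T cells and is needed for diabetes in NOD mice. The question addressed was which of these 4 programmes the dividing cells carried, once the greater UMI depth of dividing cells had been matched.

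The 7 cycle genes chose the cells, so every value of cycling against other CD4 T cells is a description without a test. The cycle sum ran over 4, 39 and 148 UMIs (lowest, median and highest) in the cycling cells at 12 weeks and over 4, 15.5 and 135 at 7 weeks. Just inside the threshold, at a sum of 4, lay 4 cells at 12 weeks and 4 at 7 weeks, with means of 8 and 3.75 S-phase UMIs per 2000. Just outside it, at a sum of 3, lay 8 cells at 12 weeks and 4 at 7 weeks, with means of 4.13 and 3.25. The G2/M means were 2 and 2.25 UMIs per 2000 at a sum of 4, against 4 and 2.75 at a sum of 3. Cells on the border thus differed little in S-phase UMIs at 7 weeks. In G2/M UMIs those inside did not exceed those outside at either age. A sum of 7 or more was reached by 55 of 61 cycling cells at 12 weeks and 30 of 40 at 7 weeks. Mki67 was seen in 53 of 61 cycling cells at 12 weeks and in 32 of 40 at 7 weeks. The CD3 genes and Cd4 were set by the gate, as was their absence from the 495 and 115 B cells used as a background (at least 3 UMIs of Cd79a, Cd79b and Ms4a1, none of CD3), so they do not check the label. Cd40lg, which the rule did not use, encodes the helper T cell ligand of CD40 and had a UMI in 29 of 61 and 11 of 40 cycling CD4 T cells, against 0 of 56 and 1 of 23 cycling CD8 T cells. By that gene the cycling CD4 T cells stood apart from cycling CD8 T cells in both libraries.

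Some barcodes stood apart before any comparison was made. Of the 40 cycling cells at 7 weeks, 2 held 899 and 900 UMIs of the MHC class II genes Cd74, H2-Aa, H2-Ab1 and H2-Eb1, while the next highest held 18 and the highest at 12 weeks held 19. Both had Foxp3 UMIs. Among other CD4 T cells, 3 of 838 at 12 weeks and 19 of 357 at 7 weeks held 50 or more. B cells, which make these proteins, had medians of 194 and 185. Some results that rest on these barcodes are given with and without them below. The others include them. The doublet caller Scrublet marked none of the cycling CD4 T cells, and no barcode was removed on its calls. It marked 0.785% of all barcodes at 12 weeks and 0.180% at 7 weeks, a share so low that the caller cannot be said to have worked on the 7-week library. The 2 libraries shared 2 barcodes, neither of them a cycling CD4 T cell.

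Most other lineages left few transcripts in the cycling cells. The 10 B cell markers summed to between 0 and 4 UMIs per cycling cell at 12 weeks and between 0 and 5 at 7 weeks, and Ebf1, Pax5 and Cr2 were at 0 at 7 weeks. The 10 macrophage and monocyte markers summed to between 0 and 4 UMIs per cell at either age. They made up 50.4 CPM (counts per a fixed total of UMIs, the same for every group) in cycling and 413 CPM in other CD4 T cells at 12 weeks, and 42.4 against 696 CPM at 7 weeks. Without the MHC class II-rich barcodes the values were 50.4 against 235 CPM at 12 weeks and 35.3 against 48.2 CPM at 7 weeks, and 1 cell held 27.1% and 43.3% of these UMIs among all other CD4 T cells. Dendritic cell markers reached 25 UMIs per cell at 12 weeks and 26 at 7 weeks, and those of NK and innate lymphoid cells, several of which T cells also express, 17 and 35. What these transcripts contribute to the results below was not tested.

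Cycling cells were deep cells. Their median was 15117 UMIs at 12 weeks and 17276 at 7 weeks, against 4561.5 and 5629 in other CD4 T cells and 4614 and 4973 in B cells. The rule counts raw UMIs, so a deep cell meets it more easily. Of the CD4 T cells with 20000 UMIs or more, 79.2% at 12 weeks (19 of 24) and 76.2% at 7 weeks (16 of 21) were cycling. Of those under 5000 UMIs, 0.193% (1 of 517) and 1.53% (2 of 131) were. Between 5000 and 10000 UMIs the shares were 2.87% and 4.19%, and between 10000 and 20000 UMIs they were 41.8% (33 of 79) and 19.2% (15 of 78). Cells differ in size as well as in capture, and these cannot be told apart here.

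**Figure D1:**
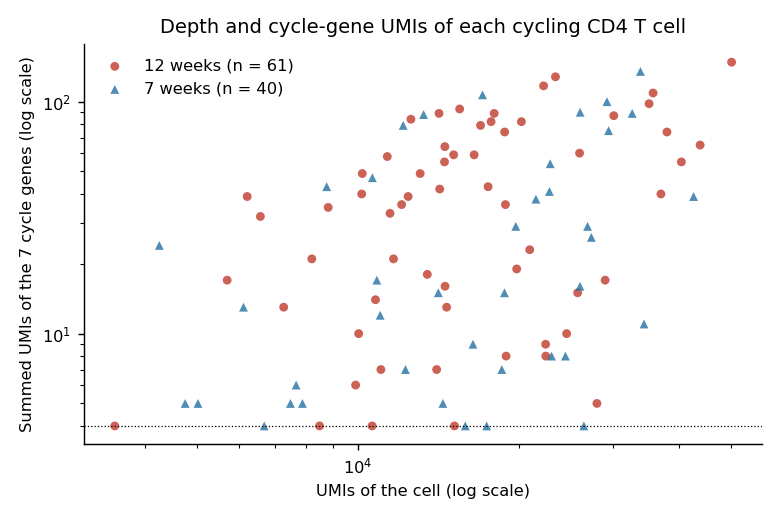
UMIs of each cycling CD4 T cell (x axis, log scale) against the summed UMIs of the 7 cycle genes (y axis, log scale), for 61 cells at 12 weeks (circles) and 40 at 7 weeks (triangles). The dotted line marks the threshold of 4, and cells with high cycle sums are found over a wide range of depth.

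Of the CD4 T cells, 6.79% were cycling at 12 weeks (61 of 899, exact Clopper-Pearson 95% interval 5.23 to 8.63) and 10.1% at 7 weeks (40 of 397, 7.30 to 13.5). The ratio of the shares, 12 over 7 weeks, was 0.673, with an exact conditional binomial interval of 0.445 to 1.03. When cells were thinned to 2000 UMIs each and called cycling at a sum of 2, the shares were 5.67% and 6.80% and the ratio was 0.834 (0.513 to 1.38). Both intervals included 1. Of all kept barcodes, 2.18% and 3.61% were cycling CD4 T cells, a ratio of 0.603 (0.398 to 0.922). Between 10000 and 20000 UMIs the ratio lay on the other side of 1, at 2.17 (1.15 to 4.30). The direction between the ages thus depended on the depth class, and whether the interval included 1 depended on the denominator. Cycling CD8 T cells, called by the same cycle sum among cells with Cd8a or Cd8b1, made up 12.2% of CD8 T cells at 12 weeks (56 of 459) and 13.5% at 7 weeks (23 of 170). Intervals and floors throughout cover counting error alone.

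Most dividing CD4 T cells carried a transcript of at least 1 programme gene. With all UMIs counted, 54 of 61 cycling cells at 12 weeks and 38 of 40 at 7 weeks had a UMI of Foxp3, Izumo1r, Lag3 or Il21, against 62.4% and 77.3% of other CD4 T cells. Cycling CD8 T cells had one in 53 of 56 and 20 of 23 cells, and B cells in 6.87% and 8.70%. Thinned to 2000 UMIs the shares were 60.7% and 62.5% of cycling against 51.3% and 61.6% of other CD4 T cells. With all UMIs counted, each cell was placed in the first class that applied in the order Foxp3, Il21, Lag3 with at least 2 UMIs, Izumo1r and none of these. At 12 weeks 9 cells were in the Foxp3 class, 15 in Il21, 16 in Lag3, 12 in Izumo1r and 9 in none. At 7 weeks the numbers were 12, 10, 7, 8 and 3. With all UMIs, dividing cells were thus spread over all 4 programmes at both ages. At 2000 UMIs most of this spread was out of reach. The class with none of these then held 34 of 61 cells at 12 weeks and 18 of 40 at 7 weeks, against 52.1% and 42.0% of other CD4 T cells, and Il21 held 1 and 2 cells.

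**Figure D2:**
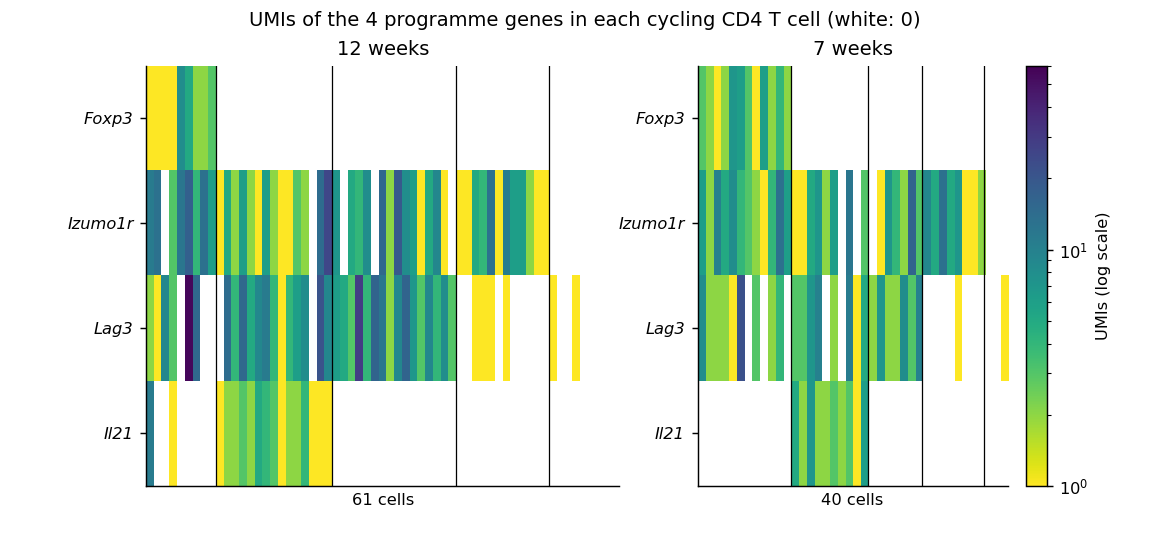
UMIs of Foxp3, Izumo1r, Lag3 and Il21 (rows, colour on a log scale, white for 0) in each cycling CD4 T cell (columns) at 12 weeks (61 cells, left) and 7 weeks (40 cells, right). Vertical lines part the classes Foxp3, Il21, Lag3, Izumo1r and none, from left to right; Izumo1r and Lag3 UMIs are seen in most Foxp3 and Il21 class cells.

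Foxp3 (chrX:7573644-7595245, GRCm38, plus strand) had 0, 0 and 8 UMIs in cycling cells at 12 weeks (lowest, median and highest), and was seen in 9 of 61 of them (14.8%) against 59 of 838 other CD4 T cells (7.04%). At 7 weeks it was seen in 12 of 40 cycling cells (30%) against 45 of 357 others (12.6%). After thinning to 2000 UMIs the shares were 6.56% (4 of 61) against 4.18% at 12 weeks and 15% (6 of 40) against 6.72% at 7 weeks, with ratios of 1.57 (0.405 to 4.39) and 2.23 (0.746 to 5.60), both with intervals that included 1. A single thinning is itself a random draw, and the share expected over all possible thinnings was 4.01% against 3.98% at 12 weeks and 9.06% against 6.26% at 7 weeks. B cells, which should lack Foxp3, had expected shares of 0.237% and 0.0921%. Thinned cycling CD8 T cells had a Foxp3 UMI in 0 of 56 cells, where the floor of 3 cells is 5.36% and the exact interval reaches 6.38%. At 7 weeks 0 of 23 had one, where the floor is 13.0% and the exact interval reaches 14.8%. Unthinned, 1 of 56 and 0 of 23 had one. In CPM, Foxp3 stood at 21.6 in cycling and 31.0 in other CD4 T cells at 12 weeks (ratio 0.697, interval 0.432 to 1.08) and at 53.3 and 40.3 at 7 weeks (1.32, 0.890 to 1.93). Without the barcodes rich in MHC class II transcripts the ratio of thinned shares at 7 weeks was 1.62 and the CPM ratio 1.3. The 6 cycling cells with a thinned Foxp3 UMI at 7 weeks included the 2 MHC class II-rich barcodes. These 6 cells had cycle sums of 4, 5, 7, 9, 11 and 15. All lay below the median of 15.5 in that library. The 4 such cells at 12 weeks had sums of 4, 21, 42 and 117, against a median of 39. Foxp3+ cells were thus among the cells called cycling at both ages. At matched depth the intervals did not part their share from that among other CD4 T cells.

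Izumo1r (chr9:14885814-14903949, minus strand) was the programme gene with a UMI in the most cycling cells. It had 0, 2 and 25 UMIs per cycling cell at 12 weeks and 0, 3.5 and 16 at 7 weeks. Its unthinned shares were 77.0% of cycling against 54.9% of other cells at 12 weeks and 85% against 70.3% at 7 weeks, so that the deeper cells held it more often. Thinned shares went the other way, at 36.1% against 40.6% and 35% against 51.3%, with ratios of 0.889 (0.550 to 1.37) and 0.683 (0.366 to 1.18), beside 1.21% and 3.48% of B cells. In CPM it was lower in cycling cells, at 263 against 490 at 12 weeks (ratio 0.536, 0.473 to 0.606) and 242 against 493 at 7 weeks (0.491, 0.417 to 0.575). Izumo1r was therefore widespread in dividing cells, at a lower CPM than in other CD4 T cells.

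Lag3 (chr6:124904361-124911705, minus strand) had 0, 3 and 56 UMIs per cycling cell at 12 weeks and 0, 2 and 22 at 7 weeks. The highest cell held 16.5% and 17.7% of its UMIs. Unthinned, it was seen in 67.2% of cycling against 40.3% of other cells at 12 weeks and in 65% against 53.2% at 7 weeks. Thinned, the shares were 34.4% against 29.7% (ratio 1.16, 0.705 to 1.81) and 27.5% against 35% (0.785, 0.382 to 1.45), beside 1.01% and 0.870% of B cells. Its CPM was lower in cycling cells at both ages, at 305 against 510 (0.598, 0.532 to 0.671) and 170 against 397 (0.427, 0.352 to 0.515). At 12 weeks the share and the CPM pointed in opposite directions, so no order is read from the share.

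Il21 (chr3:37222759-37232636, minus strand) was the rarest at equal depth together with Foxp3. It had 46 UMIs in 17 cycling cells at 12 weeks and 33 UMIs in 10 at 7 weeks, with a highest cell of 11 and 7. Unthinned shares were 27.9% against 13.4% and 25% against 16.8%. The drawn thinning left Il21 in 1 of 61 cycling cells (1.64%) against 6.09% of others at 12 weeks and in 2 of 40 (5%) against 7.00% at 7 weeks. The cell at 12 weeks had a cycle sum of 55, and the 2 at 7 weeks had sums of 4 and 7. The shares expected over all thinnings were 6.41% against 6.44% and 9.36% against 6.71%, so the drawn thinning lay below what thinning gives on average. B cells had expected shares of 0.126% and 0.582%. The CPM was 41.4 against 44.6 at 12 weeks (0.928, 0.659 to 1.28) and 45.1 against 35.9 at 7 weeks (1.26, 0.816 to 1.89). For Il21 no difference between dividing and other cells could be seen at this depth.

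**Figure D3:**
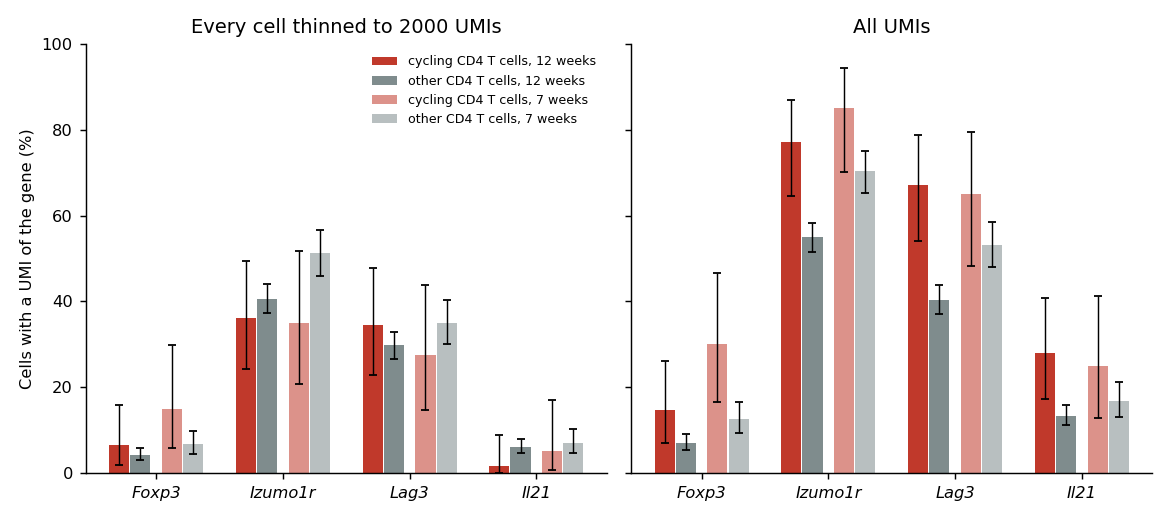
Share of cells with a UMI of each programme gene (y axis, percent) in cycling (red) and other (grey) CD4 T cells at 12 weeks (full colour) and 7 weeks (pale), after thinning each cell to 2000 UMIs (left) and with all UMIs (right). Bars are shares with exact 95% binomial intervals; every unthinned share is higher in cycling cells, while the thinned intervals overlap for each gene and age.

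Read from the other side, the thinned data gave the share of each programme that was dividing. Of the CD4 T cells with a Foxp3 UMI, 10.3% were cycling at 12 weeks (4 of 39, interval 2.87 to 24.2) and 20% at 7 weeks (6 of 30, 7.71 to 38.6). For Izumo1r the values were 6.08% and 7.11%, for Lag3 7.78% and 8.09%, and for Il21 1.92% (1 of 52) and 7.41% (2 of 27). Cells with none of the 4 genes after thinning were cycling at 5.56% (24 of 432) and 9.87% (15 of 152). Every one of these intervals included the share of all CD4 T cells at its age. At 7 weeks the Foxp3 and Il21 values rest on the cells with low cycle sums given above. Those of Foxp3 include the 2 MHC class II-rich barcodes.

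The programmes overlapped within dividing cells. Izumo1r was seen in 8 of the 9 Foxp3+ cycling cells at 12 weeks and in all 12 at 7 weeks, against 39 of 52 and 22 of 28 Foxp3- cycling cells. Il21 was seen in 2 of the 9 and in 0 of the 12 Foxp3+ cycling cells, against 15 of 52 and 10 of 28 Foxp3- cycling cells. Lag3 was seen in 15 of 17 and 8 of 10 Il21+ cycling cells against 26 of 44 and 18 of 30 Il21- cycling cells. Izumo1r was seen in 16 of 17 and 8 of 10 Il21+ cycling cells, against 31 of 44 and 26 of 30 Il21- cycling cells, so its order differed between the ages. These are raw UMIs of cells that differ in depth, and the part depth has in them was not tested.

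Some other regulatory genes were higher in Foxp3+ cycling cells. Of 15 further genes of the regulatory list compared, Capg, Ikzf4, Itgae, Tnfrsf18 and Tnfrsf4 were higher in Foxp3+ cells with intervals above 1 at both ages. The share of all genes that do so in this split was not computed, so the count is not read as an excess. Tnfrsf9 (4-1BB) was lower at 7 weeks (ratio 0.141, 0.0163 to 0.559), and for Il2ra and Nrp1 the interval included 1 at each age. Ikzf2, a transcription factor of regulatory T cells, stood at 240 CPM in Foxp3+ against 174 CPM in Foxp3- cycling cells at 12 weeks (ratio 1.37, 0.984 to 1.89) and at 553 against 167 CPM at 7 weeks (3.31, 2.5 to 4.41). Tnfrsf4 (OX40, a costimulatory receptor) was 2.12-fold and 2.06-fold higher at 12 and 7 weeks, but it was also higher in Il21+ (1.53-fold and 1.44-fold), Lag3+ (3.21-fold and 1.56-fold) and Izumo1r+ cells (3.07-fold and 4.75-fold) than in cycling cells without the gene. Capg, an actin-capping protein, was 2.31-fold and 2.67-fold higher in Foxp3+ cells. In the Izumo1r split its ratios were 3.93 and 7.75, in the Lag3 split 1.68 and 1.12, and in the Il21 split 0.739 and 0.510. Ikzf2 had ratios of 1.88 and 2.46, 1.67 and 1.17, and 0.892 and 0.444 in the same splits. Between Foxp3+ and Foxp3- cells Ctla4, the inhibitory receptor, differed between ages, at 101 against 117 CPM at 12 weeks and 252 against 101 CPM at 7 weeks. Tcf7, a transcription factor of naive and memory T cells, was lower in Foxp3+ cells, at 50.7 against 235 CPM and 32.5 against 276 CPM. Tbc1d4 was lower too, at 55.3 against 399 CPM and 89.4 against 297 CPM, as was Pdcd1 (PD-1) at 120 against 246 CPM and 118 against 239 CPM. Without the MHC class II-rich barcodes Tbc1d4 stood at 25.7 CPM in Foxp3+ cycling cells at 7 weeks. Over both libraries and without the MHC class II-rich barcodes, 19 Foxp3+ and 80 Foxp3- cells gave ratios of 2.45 for Ikzf2, 2.17 for Tnfrsf4, 0.166 for Tcf7 and 0.114 for Tbc1d4. The Foxp3+ dividing cells therefore held more Tnfrsf4 and Capg at both ages, with intervals above 1, more Ikzf2 at 7 weeks, and less of Tcf7, Tbc1d4 and Pdcd1. Tnfrsf4, Capg and Ikzf2 were also higher in Izumo1r+ than in Izumo1r- cycling cells at both ages, so they were not particular to Foxp3+ cells. The genes named here were picked from a panel of lists with their values known.

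Il21+ cycling cells had another set. Pdcd1 stood at 305 CPM in Il21+ against 181 CPM in Il21- cycling cells at 12 weeks (ratio 1.69, 1.3 to 2.19) and at 375 against 149 CPM at 7 weeks (2.52, 1.78 to 3.55). Tbc1d4 was 1.57-fold and 3.65-fold higher, Cd200, a surface protein of follicular helper cells, 1.64-fold and 3.33-fold, and Tcf7 1.33-fold and 2.39-fold. Ccl5, a chemokine of effector cells, was lower, at 85.2 against 587 CPM and 93.7 against 492 CPM. Ifng stood at 115 against 76.3 CPM at 12 weeks (1.51, 0.991 to 2.29) and at 706 against 70.0 CPM at 7 weeks, where 1 cell held 65.4% of the Ifng UMIs of all cycling cells. Lag3+ cycling cells, 67 against 34 over both libraries, had Bhlhe40 at 173 against 68.1 CPM, Tox at 105 against 52.6 CPM and Klf2 at 10.5 against 42.8 CPM.

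Compared with cycling CD8 T cells, which divided in the same tissue, cycling CD4 T cells had more Izumo1r (263 against 46.0 CPM at 12 weeks, 242 against 30.5 CPM at 7 weeks) and more Il21 (41.4 against 3.92 CPM, 45.1 against 6.09 CPM). Tnfrsf4 was 7.99-fold and 13.6-fold higher and Maf, a transcription factor of Il21-producing helper cells, 20.1-fold and 20.9-fold. Lag3 did not part the dividing CD4 and CD8 T cells, at ratios of 0.95 (0.814 to 1.11) and 0.780 (0.598 to 1.02), nor did Pdcd1, at 0.860 (0.720 to 1.03) and 0.827 (0.644 to 1.06). Ccl5 stood at 423 against 6154 CPM and 405 against 4368 CPM, and Gzmb, a cytotoxic granule protease, at 16.2 against 353 CPM and 28.7 against 185 CPM. The 2 kinds of cell were gated on Cd4, Cd8a and Cd8b1, which are not compared.

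Across all genes, 7229 had at least 30 UMIs in cycling and other CD4 T cells together in each library. Of these, 607 (8.4%) were at least 2-fold apart in the same direction in both libraries, 368 (5.09%) higher and 239 (3.31%) lower in cycling cells. All 7 rule genes are among the 368, and 99 of the 368 belong to the lists of cell cycle, chromatin, tubulin, G1 and growth genes. The rule used this contrast, so the list counts below describe the cells and test nothing. The median log2 ratio of all genes tested was 0.01 at 12 weeks and -0.04 at 7 weeks.

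DNA replication genes were higher throughout. Of 31 S-phase genes tested, 30 were at least 2-fold higher in both libraries, against 5.09% of all genes, with median log2 ratios of 2.76 and 2.99. Pcna, the sliding clamp of DNA polymerase, stood at 387 against 82.4 CPM at 12 weeks and 429 against 89.4 CPM at 7 weeks. Mcm5 and Mcm6, subunits of the replicative helicase, had 257 against 36 CPM and 276 against 109 CPM at 12 weeks, and 217 against 20.4 CPM and 312 against 71.8 CPM at 7 weeks. Tyms, which makes thymidylate, had 288 against 22.8 CPM and 254 against 21.2 CPM.

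All 31 G2/M genes tested were at least 2-fold higher, against 5.09% of all genes, with median log2 ratios of 5.28 and 4.45. Ube2c, which attaches ubiquitin for the anaphase-promoting complex, stood at 619 against 8.35 CPM at 12 weeks and 321 against 11.2 CPM at 7 weeks. Ccnb2, a mitotic cyclin, had 301 against 2.42 CPM and 200 against 6.79 CPM, and Cdc20, an activator of the same complex, 334 against 7.03 CPM and 131 against 3.59 CPM. The 17 chromatin genes tested were all at least 2-fold higher, led in level by Hmgb2 (3181 against 360 CPM and 2792 against 369 CPM) and H2afz.

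The start regions of these genes carry letters that part the lists. The motif TTTGAA (cell cycle homology region, CHR) is bound by repressor and activator complexes of late cell cycle genes, CCAAT by NF-Y, and TTTCCCGC, TTTGGCGC, TTTCGCGC and TTTGCCGC are forms of the E2F site of replication genes. They were searched on both strands in the 300 bases from 250 before to 50 after each start in RefSeq (GRCm38.p6). TTTGAA was found in 27 of 35 G2/M genes with a window and in 4 of 27 S-phase genes, against 20.2% of 27025 genes. An E2F form was found in 0 of 35 G2/M and 12 of 27 S-phase genes, against 2.60% of all, and CCAAT in 28 of 35 and 16 of 27, against 41.1%. Of the 3 programme genes with a window, 1 held TTTGAA and none an E2F form. A match is a run of letters and not a shown binding site. The split was partial, since 15 of 27 S-phase genes, Mcm2 and Mcm3 among them, held no E2F form and 8 of 35 G2/M genes, Plk1 and Cenpf among them, no TTTGAA. Overlapping E2F forms are merged in the stretches that follow, which show, for 2 G2/M genes and 2 S-phase genes chosen because they hold the motifs, the bases before the start, with the motifs in capitals. RefSeq strands are minus for Ccnb2 (chr9:70421561-70421731), Cdc20 (chr4:118437344-118437406) and Mcm6 (chr1:128359706-128359825) and plus for Mcm5 (chr8:75109346-75109501).
Ccnb2: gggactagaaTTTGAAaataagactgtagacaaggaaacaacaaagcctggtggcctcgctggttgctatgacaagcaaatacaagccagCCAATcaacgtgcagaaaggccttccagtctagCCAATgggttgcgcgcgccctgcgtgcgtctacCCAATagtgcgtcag
Cdc20: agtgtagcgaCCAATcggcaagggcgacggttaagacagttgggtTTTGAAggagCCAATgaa
Mcm5: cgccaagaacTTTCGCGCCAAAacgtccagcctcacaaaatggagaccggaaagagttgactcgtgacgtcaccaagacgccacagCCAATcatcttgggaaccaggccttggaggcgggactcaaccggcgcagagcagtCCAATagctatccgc
Mcm6: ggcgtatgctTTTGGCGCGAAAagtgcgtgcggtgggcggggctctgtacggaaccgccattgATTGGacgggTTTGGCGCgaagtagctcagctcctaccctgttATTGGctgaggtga
Ccnb2 and Cdc20 show TTTGAA and CCAAT without an E2F form, and Mcm5 and Mcm6 show E2F forms and CCAAT, in Mcm6 read from the other strand as ATTGG, without TTTGAA.

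Dividing cells varied in which of these sets they held. Thinned to 2000 UMIs, cycling cells at 12 weeks had 0, 8 and 28 UMIs of the S-phase list without rule genes (lowest, median and highest), and at 7 weeks 0, 8.5 and 23. The means were 9.69 against 1.57 in other CD4 T cells at 12 weeks and 8.80 against 1.42 at 7 weeks. G2/M list UMIs were 0, 17 and 54 at 12 weeks and 0, 11 and 65 at 7 weeks, with means of 21.7 against 1.6 and 15.3 against 1.69. S-phase UMIs outnumbered G2/M UMIs in 24 cycling cells at 12 weeks and 15 at 7 weeks, and the reverse held in 37 and 24. Cells of all classes were found on both sides. In the Izumo1r class at 12 weeks G2/M UMIs were higher in 11 of 12 cells (mean 33.3 G2/M and 4.75 S-phase UMIs), against 6 of 8 at 7 weeks. In the Foxp3 class the numbers were 6 of 9 and 7 of 12, and in the Il21 class 8 of 15 and 5 of 10. Cells of the Izumo1r class have by its construction no Foxp3 or Il21 UMI and were shallower, at a median of 12030.5 UMIs against 22281 in the Foxp3 class at 12 weeks, and the part of depth was not tested.

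**Figure D4:**
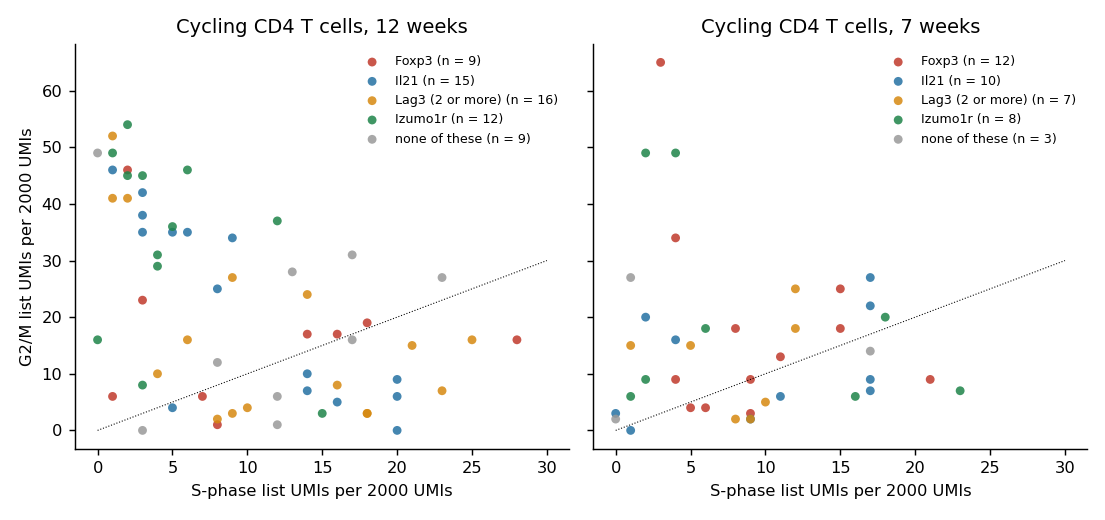
UMIs of the S-phase list (x axis) against those of the G2/M list (y axis) in each cycling CD4 T cell thinned to 2000 UMIs, at 12 weeks (left, 61 cells) and 7 weeks (right, 40 cells), coloured by class. The dotted line marks equal numbers; 37 and 24 cells lie above it, and the 25 cells with over 30 G2/M UMIs have at most 17 S-phase UMIs.

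Growth genes were modestly higher. Of 19 genes of ribosome production and growth tested, 18 had ratios above 1 in both libraries, against 36.7% of all genes. At least 2-fold higher were 5 (Gar1, Hspd1, Nme1, Nop58 and Ran), against 5.09% of all genes. Ran, the GTPase of nuclear transport and spindle assembly, stood at 1562 against 425 CPM at 12 weeks and 1263 against 378 CPM at 7 weeks. Of 15 glycolysis genes, 11 were above 1 in both libraries and 1, Tpi1, was at least 2-fold higher (277 against 79.7 CPM and 175 against 69.4 CPM). Among 9 genes of G1 cyclins and E2F tested, Cdc25a, Cdk2, Cdk4, Mybl2 and Rbl1 were at least 2-fold higher, against 5.09% of all genes. Ccnd2, the cyclin D2 gene, was at least 2-fold lower (243 against 547 CPM and 275 against 553 CPM), beside 3.31% of all genes.

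Genes of naive T cells were lower. All 13 tested had ratios below 1 in both libraries, against 38.7% of all genes, and 6 were at least 2-fold lower, against 3.31%. The median log2 ratios were -1.78 at 12 weeks and -0.97 at 7 weeks. Igfbp4 had 1 UMI in 61 cycling cells against 967 UMIs in 838 other cells at 12 weeks (ratio 0.0042, interval 0.00011 to 0.0237) and 5 against 294 UMIs at 7 weeks (0.0583, 0.0188 to 0.138). Il7r, the receptor of the survival cytokine IL-7, stood at 10.8 against 174 CPM and 20.5 against 71.8 CPM. Lef1, a transcription factor of naive T cells, had 50.4 against 268 CPM and 35.5 against 134 CPM. Tcf7 was below 1 as well but not among the 6 that were at least 2-fold lower, at 199 against 200 CPM and 194 against 247 CPM.

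Genes that hold cells out of the cycle were lower in part. Of 13 inhibitors tested, 9 were below 1 and 4 above 1 in both libraries, with median log2 ratios of -0.56 and -0.19. At least 2-fold lower in both were 6 (Btg1, Btg2, Cdkn1b, Foxp1, Klf2 and Tob1), against 3.31% of all genes. At least 2-fold higher was 1, Cdkn2c (96.3 against 15.8 CPM and 93.0 against 28.3 CPM). Btg1, an antiproliferative gene of resting lymphocytes, stood at 203 against 769 CPM and 591 against 1478 CPM. Of 19 immediate targets of the T cell receptor, 15 were below 1 in both libraries, against 38.7% of all genes. Jun, Junb and Nr4a3 were at least 2-fold lower, against 3.31% of all genes. Of 11 genes tested of the dissociation stress response, 4 were at least 2-fold lower, against 3.31% of all genes. Both lists hold Fos, Jun, Junb, Ier2 and Egr1, so the part of cell handling cannot be told apart from that of signalling. Hspa1a of the stress list stood at 146 against 741 CPM and 461 against 919 CPM.

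In the lists of regulatory genes, of genes listed with Izumo1r and of genes listed with Lag3 and Il21, few genes passed 2-fold. In each list more genes were below 1 in both libraries than above 1 in both. For the list of Lag3 and Il21 the share below, 8 of 18, was near the 38.7% of all genes. The call of 1 gene in each of these 3 lists stands beside 3.31% over all genes. Of 13 regulatory T cell genes tested 10 were below 1 in both libraries (38.7% of all genes). Only Il2ra, the IL-2 receptor alpha chain, was at least 2-fold lower, at 10.8 against 23.9 CPM and 10.9 against 22.4 CPM. Of 14 genes listed with Izumo1r, 9 were below 1 in both libraries (38.7% of all genes), with median log2 ratios of -0.09 and -0.68, and Tnfsf8 (CD30 ligand) was at least 2-fold lower, at 127 against 315 CPM and 101 against 222 CPM. Of 18 genes listed with Lag3 and Il21, 8 were below 1 in both libraries (38.7% of all genes), and Il10 was at least 2-fold lower, at 16.2 against 43.1 CPM and 5.47 against 102 CPM. None of these 3 lists had a gene at least 2-fold higher in both libraries. Of 16 memory and effector genes, 7 were above 1 and 5 below 1 in both libraries, against 36.7% and 38.7% of all genes. Cxcr6 and Il7r were at least 2-fold lower, and Lgals1 (galectin-1) stood at 1473 against 840 CPM and 1943 against 1003 CPM.

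**Figure D5:**
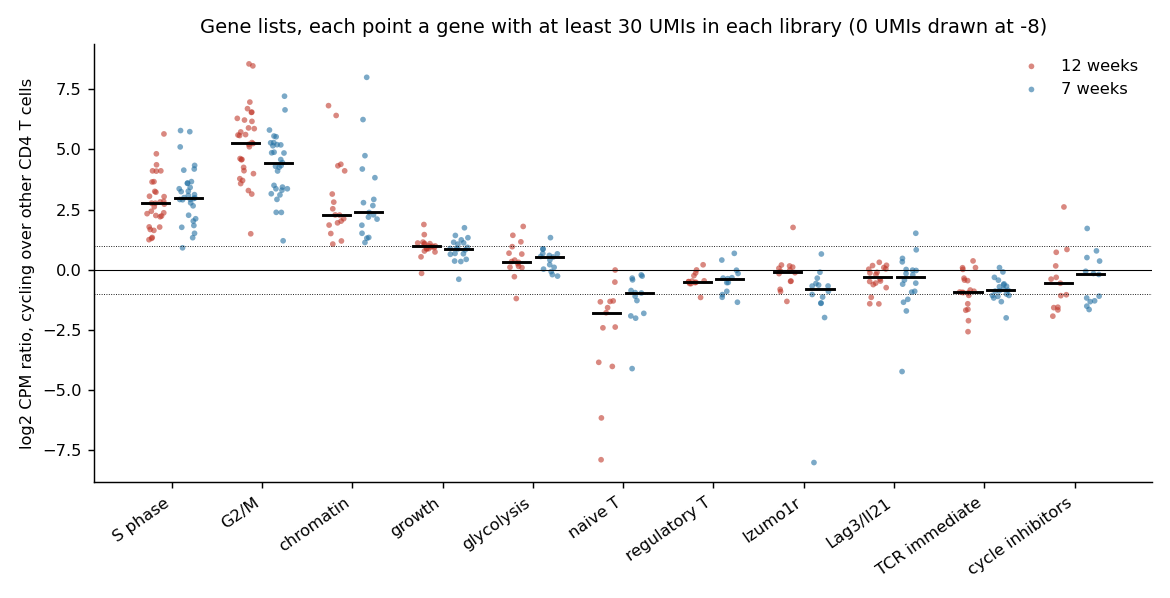
log2 CPM ratio of cycling over other CD4 T cells (y axis) for the tested genes of 11 lists (x axis), at 12 weeks (red) and 7 weeks (blue), with the median as a black bar and dotted lines at 2-fold. S-phase, G2/M and chromatin genes lie above 0 and naive T cell genes at or below 0 at both ages, while the regulatory, Izumo1r and Lag3/Il21 lists lie around or just below it; 1 gene with 0 UMIs at 7 weeks is drawn at -8.

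Outside the lists, the 10 highest genes past 2-fold in both libraries were further genes of cell division and DNA repair. Esco2, which joins sister chromatids, had 92 UMIs in cycling against 2 in other CD4 T cells at 12 weeks and 30 against 1 at 7 weeks. Cdca5, of the same process, had 63 against 1 and 30 against 2 UMIs, Neil3 45 against 3 and 40 against 1, Casc5 94 against 3 and 33 against 2, and Cep55 99 against 5 and 49 against 3. Ncapg, Cdkn3, Ncaph, Spc25 and Rad51ap1 completed them. The 10 lowest were Igfbp4, Pik3ip1, Apoe, Tcp11l2, Lyz2, Cxcl9, Scg5, Slfn5, Il7r and Pdlim4. Pik3ip1, an inhibitor of PI3 kinase in resting T cells, had 1 against 253 UMIs and 2 against 78, and Tcp11l2 2 against 256 and 5 against 123. Apoe, Lyz2 and Cxcl9 are macrophage genes, and in other CD4 T cells 1 cell held 65.5% of the Apoe UMIs at 12 weeks and 67.1% at 7 weeks. The Lyz2 ratio at 7 weeks, 0.0794, was 1.09 without the MHC class II-rich barcodes. Apoe, Lyz2 and Cxcl9 were then no longer among the 10 lowest.

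Within cycling cells, 12 weeks against 7 weeks, 5570 genes had at least 30 UMIs in both libraries together. Of these, 133 (2.39%) had at least 2-fold higher and 225 (4.04%) at least 2-fold lower CPM at 12 weeks, and the interval excluded 1 for 115 (2.06%) and 220 (3.95%). Without the 2 MHC class II-rich barcodes the counts were 135 and 181. The G2/M genes were higher at 12 weeks, with a median log2 ratio of 0.76 over 39 genes tested against 0.05 over all genes; 10 were at least 2-fold higher and 32 had intervals above 1, against 10.1% of all genes tested. Cdc20 stood at 334 CPM at 12 weeks against 131 CPM at 7 weeks, Hmmr at 155 against 56.1 CPM and Cenpe, a mitotic kinesin, at 183 against 69.7 CPM. The S-phase list had a median log2 ratio of 0.09 over 33 genes, with none past 2-fold. The median of the cycle sum, which chose the cells, was 39 at 12 weeks and 15.5 at 7 weeks. Its part in the G2/M ratios was not tested. G2/M UMIs outnumbered S-phase UMIs in 37 of 61 cycling cells at 12 weeks and 24 of 40 at 7 weeks. The G2/M genes were counted in the same cells, so their intervals are not separate support.

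Of the programme genes, Foxp3 was lower in cycling cells at 12 weeks, at 21.6 against 53.3 CPM (ratio 0.405, 0.233 to 0.691), and Lag3 was higher, at 305 against 170 CPM (1.80, 1.46 to 2.23). Without the highest cell of each the ratios were 0.480 and 1.52. Izumo1r (1.09, 0.898 to 1.32) and Il21 (0.918, 0.574 to 1.48) had intervals that included 1. In other CD4 T cells the Foxp3 ratio was 0.768 and the Lag3 ratio 1.29.

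The 8 highest ratios at 12 weeks whose intervals excluded 1 were those of Gcg, Ins2, Sostdc1, Cxcl13, Coq6, Ctrb1, Lta and Tubb2a. Gcg, Ins2 and Ctrb1 are pancreatic hormone and enzyme genes, with 80 against 2, 39 against 1 and 33 against 4 UMIs, and they were higher at 12 weeks in other CD4 T cells too (ratios 193, 6.73 and 10.1), although 1 of those other cells held 95.2% of the Gcg UMIs at 12 weeks. Sostdc1 had 99 UMIs in 6 cells at 12 weeks, of which 1 cell held 50.5%, and 0 in 40 cells at 7 weeks, at least 21.7-fold higher against a floor of 3 UMIs over the group, and at least 10.9-fold without that cell. Cxcl13, a chemokine that attracts B cells, had 35 UMIs in 11 cells against 0, at least 7.68-fold higher against the same floor (4.32-fold without its highest cell), and in other CD4 T cells the ratio was 0.544. Lta (lymphotoxin alpha) stood at 47.7 against 9.57 CPM.

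The 8 lowest were Ifitm1, Dapl1, Plac8, Fcer1g, Cd74, Tyrobp, H2-Eb1 and Plbd1. Single cells held much of their UMIs at 7 weeks, although Cd74 was seen in 28 and H2-Eb1 in 31 of 40 cells. A single cell held 62% of the Ifitm1 UMIs, 57.1% of those of Dapl1, 85.6% of those of Plac8 and 51.0% of those of Cd74. Without the MHC class II-rich barcodes the ratios were 0.951 instead of 0.077 for Cd74, 0.768 instead of 0.123 for H2-Eb1, 0.917 instead of 0.127 for Plbd1, 0.556 instead of 0.0679 for Plac8 and 0.468 instead of 0.121 for Tyrobp. Tyrobp, Ifitm1 (0.072), Fcer1g (0.104) and Dapl1 (0.035) remained below 0.5.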

How the data were processed

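Per the labels, CD45.1+ cells were sorted by flow cytometry and made into 10x Genomics Chromium single-cell 3' libraries. The authors deposited UMI counts per gene and barcode, made with Cell Ranger 1.3.1 on mm10 per the submitters' processing notes; its settings and annotation were not given in the sources used. The libraries held 2812 barcodes with 19288252 UMIs at 12 weeks and 1113 with 8701184 at 7 weeks, and 8 and 4 barcodes were left out by the limits on genes and mitochondrial UMIs. Counts were summed per group and library and given as CPM with exact conditional binomial intervals for ratios; shares have exact Clopper-Pearson 95% intervals. These treat each UMI or cell as independent and leave out differences between cells, mice and preparations. A gene at 0 was set to a floor of 3 UMIs over the group. Since each age had a single library, nothing was tested and no p-value is given. Cells were thinned without replacement to 2000 UMIs with a fixed seed; no CD4 T cell was shallower.

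Named genes were the 4 programme genes, the 10 highest and 10 lowest mean log2 ratios past 2-fold in both libraries outside the cycle and growth lists, the 8 highest and 8 lowest age ratios whose interval excluded 1, and of each list its first 4 by UMIs and any past 2-fold; mitochondrial, ribosomal protein, haemoglobin, Gm and Rik symbols were left out, and some genes are not reported here. Genes named from splits of the cycling cells and against CD8 T cells were chosen after their values were seen. The members and lists were chosen with earlier results of these data known. Loci are those of GENCODE for GRCm38, matched by identifier for 27722 of 27998 genes. Alternatives are given in the closing section. Ratios, intervals and thinning were tested on simulated data. Python 3.11.15, numpy 2.4.6, scipy 1.17.1, pandas 2.3.3, scanpy 1.11.5 and R 4.3.3 with edgeR 4.0.16 (for TMM factors alone) were used.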

Additional observations from a re-analysis of the deposited data

Results flagged for a closer look

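The CPM ratio of cycling over other CD4 T cells lay on opposite sides of 1 at the 2 ages, with intervals that excluded 1 at both, for 20 of 7229 genes, 6 of them in a list, of which 5 are given here. The difference between the ages was not tested. Sostdc1 had a ratio of 3.38 at 12 weeks and 0 at 7 weeks, where it had 0 UMIs in cycling cells. Ccl4 had 0.452 and 1.77, with 1 cell holding 56.7% and 78.7% of its UMIs in cycling cells. Ifng had 0.682 and 1.39, with 1 cell holding 65.4% of its UMIs at 7 weeks. Sh2d1a, the adaptor SAP, had 1.14 and 0.744, and Aldoa, a glycolytic enzyme, 1.10 and 0.870. Without the MHC class II-rich barcodes the directions were unchanged in these 5 genes.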

How the results depend on the processing

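Of 203 values under alternative settings for shares, ratios of shares, phase levels and counts of genes, 175 stayed within the interval of the reported value, or within 1.5 times for counts, and 28 did not. With Cd8a, Cd8b1 and Cd79a at 0, 5.12% of CD4 T cells were cycling at 12 weeks, S-phase UMIs were 8.68 at 12 weeks and G2/M UMIs 17.2 at 7 weeks, and 133 genes were at least 2-fold lower at 12 weeks. On thinned cells 6.80% were cycling at 7 weeks. Thinned to 1000 UMIs, the ratio of shares was 0 for Foxp3 at 7 weeks and 0.607 and 0.282 for Lag3 at 12 and 7 weeks, the percent cycling 0, 4.23 and 3.06 for the same, and G2/M UMIs at 7 weeks were 13.1. These are single draws, and the ratios expected over all thinnings to 1000 were 1.42 for Foxp3 at 7 weeks and 0.982 and 0.615 for Lag3. At 4000 UMIs G2/M UMIs at 7 weeks were 14.1. Not thinned, the ratios were 1.40 and 1.21 for Izumo1r at 12 and 7 weeks and 2.09 for Il21 at 12 weeks, and the percent cycling 9.27, 11.9 and 13.2. At a cycle sum of 6, S-phase UMIs were 10.03 at 7 weeks and G2/M UMIs 23.5 and 18.3. Without possible doublets G2/M UMIs at 12 weeks were 23.02. With genes of at least 10 UMIs, 554 and 452 genes were at least 2-fold higher and lower in cycling cells, and 434 and 696 at 12 weeks. Without the top cell of each gene 140 were lower at 12 weeks. For the rest the cause was not tested, other than that more genes are tested at 10 UMIs. Means over cells gave no value for a gene at 0 in either group. The Lyz2 ratio at 7 weeks reversed to 1.19 without possible doublets and to 1.09 without the MHC class II-rich barcodes, a setting chosen after seeing the data. Of 542 values of single genes, 50 lay outside the reported interval and 2 reversed. No paired analysis was possible because each age has 1 library and no replicate numbers. With 61 cells at 12 weeks and 40 at 7 weeks, Foxp3 and Il21 shares at 2000 UMIs rest on 1 to 6 cells.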
